A study of Mus musculus with 5 samples.

Results

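The genes described here are 51 genes of synaptic vesicles and synapses. They were listed by name and sorted into 7 roles at the synapse. Each was read from its probes on a mouse gene expression microarray, and 50 of the 51 had a probe that could be matched to the gene, among 19897 genes matched in all. Syt5 was not analysed here.

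The study followed wild-type mouse embryonic stem cells as they were differentiated into spinal motor neurons, with 1 one-colour array at each of 5 time points. The ES array holds the stem cells themselves, labelled male like all the samples. The Day2 array holds embryoid bodies, which are floating aggregates of differentiating cells, after 8 h of retinoic acid (RA), the signal that gives neural cells a spinal character. The Day3 and Day4 arrays hold embryoid bodies after 1 and 2 days of RA. The Day7 array is labelled as motor neurons after 5 days of RA and, in a second label, as embryoid bodies, so it is a whole culture and not purified neurons. RA was given together with Sonic hedgehog signalling, which directs neural cells to ventral fates, and the protocol in the labels has both from day 2 to day 5, a shorter span than the Day7 label names.

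A neuron passes a signal on by fusing transmitter-filled vesicles with the membrane of its axon terminal. SNARE proteins on vesicle and membrane drive the fusion, synaptotagmins sense the calcium that triggers it, active zone proteins hold vesicles ready at the release site, and clathrin-mediated endocytosis brings the membrane back. Neurexins and neuroligins join the terminal to the receiving cell, where scaffold proteins hold the receptors, and in motor neurons the same release machinery serves the cholinergic terminals on muscle.

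Values are log2 signals of the brightest probe of each gene after quantile normalization, which gives all arrays the same distribution of values. They show the course of a gene over the arrays, but signals of different probes cannot be ranked against each other as amounts of RNA. A probe is called well above background when the scanner software flags it so. Where a probe was not well above background on 1 of 2 arrays compared, it was raised to the dimmest signal that the software called well above background there, if it lay below that, and the fold is then a lower bound. Genes at or past 2-fold were counted as raised or lowered, a fixed rule of size. There were no replicates, so no test across time points was made and no value below has a replicate error. Repeated spots of the same probe on 1 array differed by a median SD of 0.05 to 0.11 on the log2 scale, which covers only variation within an array.

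The Day2 array stood apart. On it, 86.7% of all probes were well above background, against 57.5% to 65.7% on the other arrays, and so were 70% of 1155 olfactory receptor probes, against 8.74% to 14.1% elsewhere. The dimmest signal called well above background was 2.60 on Day2 and 4.05 to 5.22 on the other arrays. Some Day2 detections given below lie under the lowest level of those other arrays. The Day7 array was alone on the second slide, and the effects of slide and of time cannot be told apart for it.

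Most synapse genes came up late. Between Day4 and Day7, 36 of 50 members were raised at least 2-fold, where 18.1% of 16083 genes with a value were raised, and 2 members were lowered, where again 18.1% of genes were. The median change of the members was 2.14 on the log2 scale and that of all genes was -0.12. Of the 50 members, 29 lay among the 10% of genes with the largest rise between these arrays and 17 among the top 5%. The highest signal of 40 of the 50 was on Day7, beside 26.6% of all genes.

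**Figure D1:**
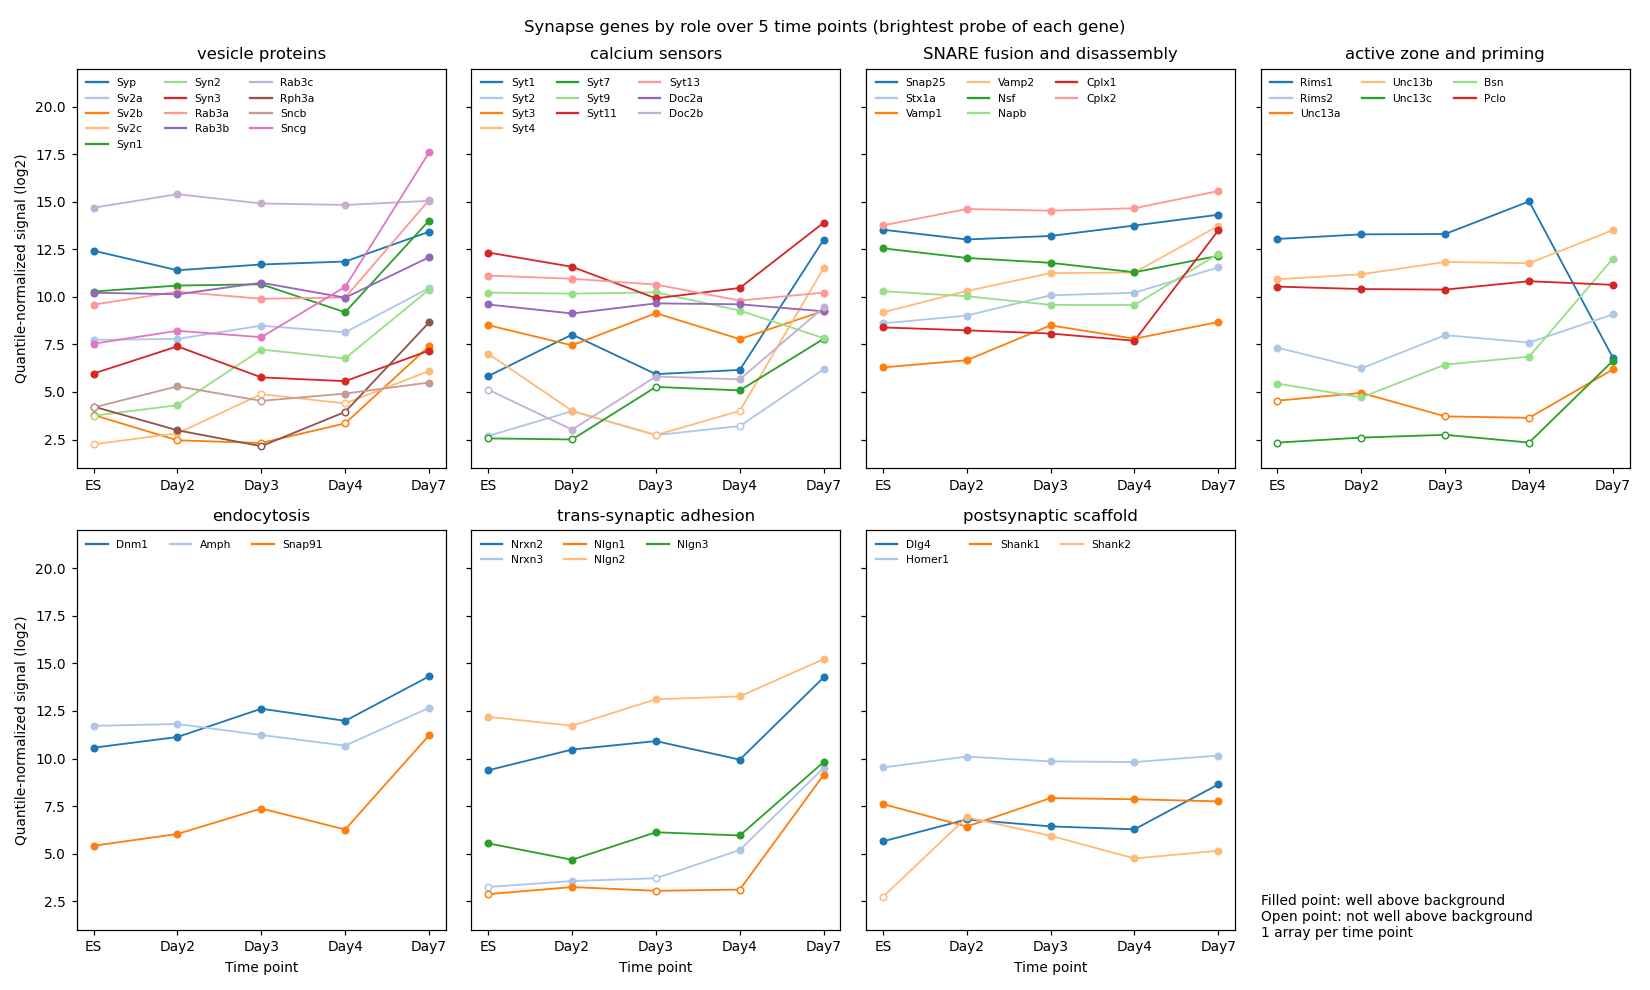
Signal of the brightest probe of each of the 50 genes, by role, on the 5 arrays (log2, quantile-normalized, time points evenly spaced). Filled points were well above background and open points were not. Many lines turn up between Day4 and Day7, where 40 of 50 genes have their highest value, and Rims1 drops from 15.02 to 6.79.

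In the earlier comparisons the shares of members past 2-fold lay nearer to those of all genes. From ES to Day3, 8 of 40 members with a value were raised, beside 15.6% of all genes, and 2 were lowered, beside 10.2%. From ES to Day4, 10 of 43 were raised, beside 17% of all genes, and 6 were lowered, beside 14.4%. The median change of the members was 0.36 and 0.37 in these comparisons, against 0.06 and 0.05 for all genes. From ES to Day2, 7 of 47 were raised, beside 10.7% of all genes, and 5 were lowered, beside 11.3%. The median was 0.00, which falls on 6 members whose change was taken as 0 because the brighter array did not pass the background level of the other. Both the split and the median depend on the scaling of the Day2 array. Scaling the arrays to a common 75th percentile gave 13 raised and 3 lowered members and a median of 0.40, against 0.04 for all genes. The share of raised among all genes past 2-fold went from 48.7% to 74.9% with it.

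Over the whole course from ES to Day7, 36 of 50 members were raised, beside 24.8% of all genes, and 2 were lowered, beside 24.4%. The median change was 2.42 for the members and -0.07 for all genes. The 2 counts of 36 are not the same genes. Syp, Syt3 and Amph were raised from Day4 but not from ES, their Day4 signal being below that of ES, and Vamp1, Cplx2 and Sncb were raised from ES but not from Day4. Both comparisons use the same Day7 array. Within the course, 28 members were raised between Day4 and Day7 without having been raised from ES to Day4, as were 14% of all genes with a value, and 8 were raised in both steps, as were 4.06% of all genes. These 8 were Syn2, Sncg, Stx1a, Vamp2, Bsn, Dnm1, Nrxn3 and Nlgn2.

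**Figure D2:**
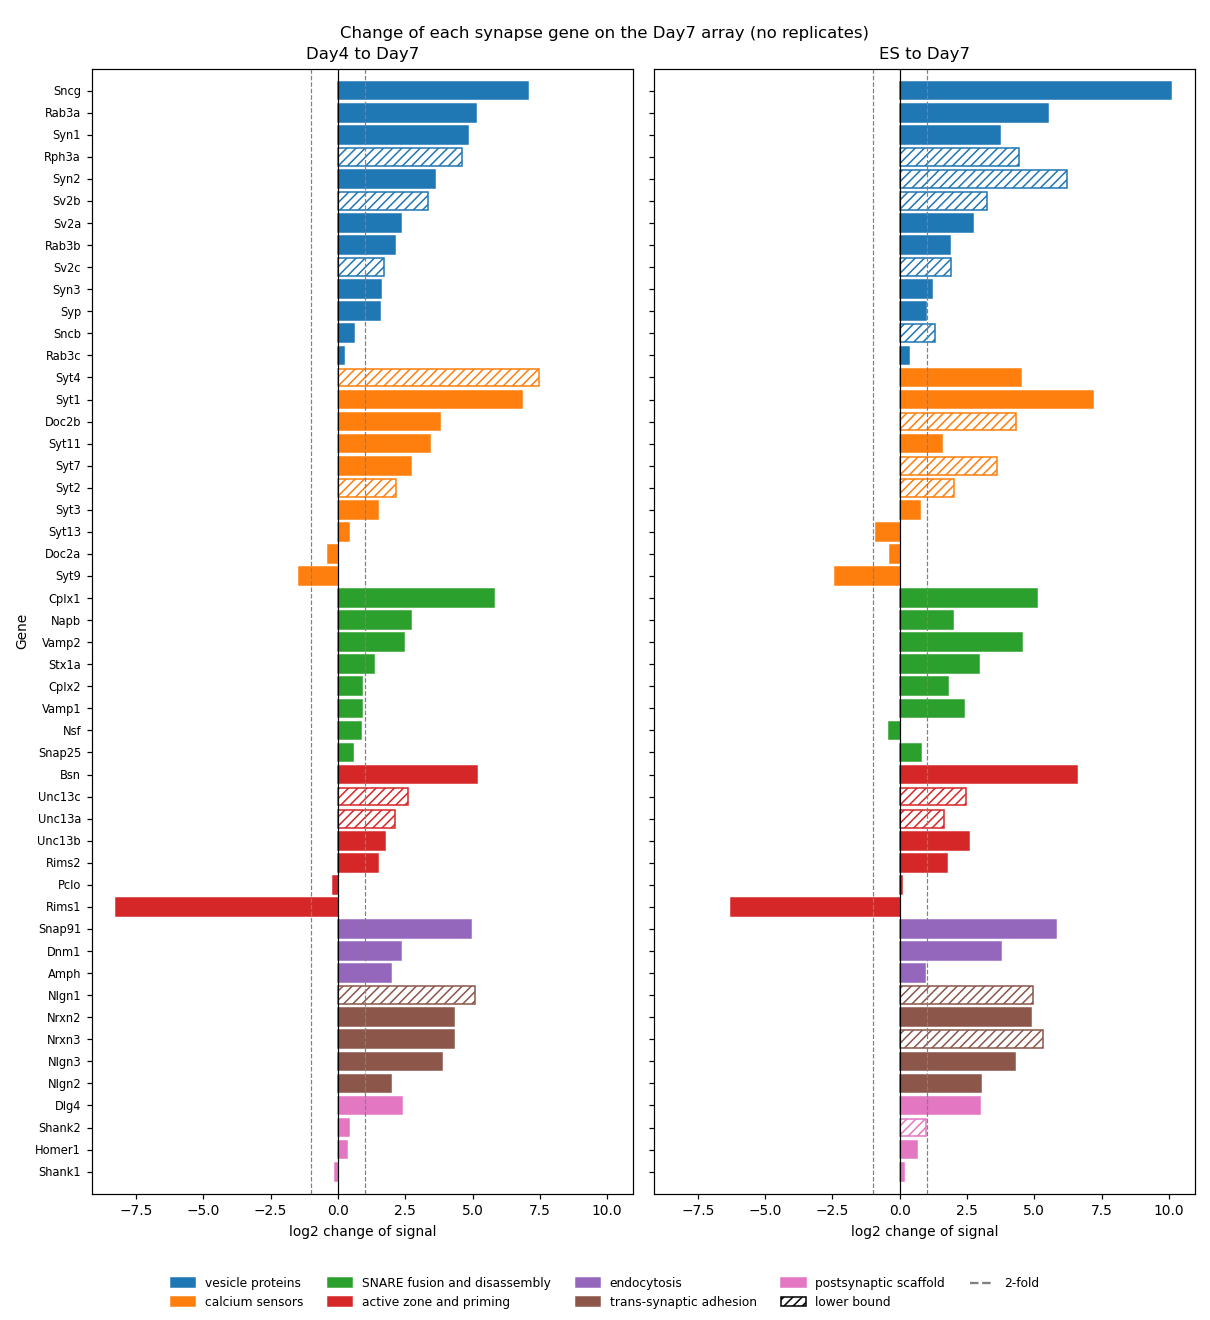
Change of the log2 signal of each of the 50 genes from Day4 to Day7 (left) and from ES to Day7 (right), by role, with dashed lines at 2-fold and hatched bars for lower bounds. In both panels 36 genes lie beyond 2-fold on the raised side and 2, Syt9 and Rims1, on the lowered side.

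The ES array had 37 of the 50 members well above background, the Day3 array 39, the Day4 array 42 and the Day7 array all 50. These are 74%, 78%, 84% and 100% of the members, beside 73.1%, 72.7%, 77.6% and 76.2% of all genes. On the Day2 array 47 were, beside 91.7% of all genes there. Sv2b and Unc13c were well above background on Day7 alone. Stem cells included, 36 members (72%) were above background on all 5 arrays, beside 67.7% of all genes.

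The labels of the end point were checked against marker genes. All 8 neuron markers (such as Tubb3, Map2 and Dcx) and all 6 motor neuron markers (such as Isl1, Chat and Slc5a7) were raised between Day4 and Day7. In this step 18.1% of all genes were raised and 18.1% lowered. The mean log2 signal of the neuron list was 9.40, 9.85, 9.02 and 9.81 from ES to Day4 and 15.83 on Day7, and that of the motor neuron list lay between 6.50 and 7.63 before Day7 and at 12.86 on it. On ES, 7 of the 8 neuron markers were already well above background. Of the 7 astrocyte and oligodendrocyte markers, 6 had a value in this step and 0 were raised by their brightest probes, and S100b was not well above background on Day7. Gfap, the classic astrocyte marker, was not well above background on Day7 by its brightest probe, but another of its 3 probes was, at 6.71, at least 6.31-fold above Day4. Of 6 neural progenitor markers, 1 was raised and 2 were lowered by their brightest probes. Olig2 and Pax6 fell by 4.12 and 5.11 on the log2 scale, while Nkx6-1 at 14.31 and Nes at 14.28 were highest on Day7 and Hes5 was still at 12.59 there. Of 7 pluripotency markers, 4 were lowered between Day4 and Day7, and the mean log2 signal of the list fell from 13.10 on ES to 10.02 on Day7. Nanog differed from that mean, at 9.20 on ES, 9.98 on Day4 and 8.80 on Day7. The neuron markers thus moved with the synapse genes, and their part in the change of the synapse genes was not tested. In RNA from a whole culture more neurons and more RNA per neuron cannot be told apart.

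Promoter sequences were searched for elements known from neuronal genes. REST, a repressor of neuronal genes in other cells, binds an element called RE1, whose left and right parts were searched as TTCAGCACC and GGACAGCG, and CREB binds the CRE, searched as TGACGTCA, each exact and on both strands. RefSeq promoter windows (assembly GRCm38.p6, 250 bases before to 50 after the start of transcription) were given for 37 of the 51 genes, in 52 windows. The left RE1 part was present in 0.371% of all 32851 windows, the right part in 1.26% and the CRE in 1.79%. Counted by gene, these are 0.433%, 1.48% and 2.03% of 27025 genes. Of the 37 genes, 3 held the left part, and 1 each the right part and the CRE. The windows of these 3 genes are shown because they hold every match among the members, with the matches in capitals and each window written on the strand of its gene.
Syn1, chrX:20920869-20921168, minus strand: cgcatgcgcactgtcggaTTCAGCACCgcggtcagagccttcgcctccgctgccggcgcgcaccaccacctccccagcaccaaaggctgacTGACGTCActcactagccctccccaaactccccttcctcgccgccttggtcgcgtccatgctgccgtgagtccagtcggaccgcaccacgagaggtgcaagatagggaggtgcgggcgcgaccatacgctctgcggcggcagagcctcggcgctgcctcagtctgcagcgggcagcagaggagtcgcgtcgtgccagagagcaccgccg
Nlgn1, chr3:26153937-26154236, minus strand: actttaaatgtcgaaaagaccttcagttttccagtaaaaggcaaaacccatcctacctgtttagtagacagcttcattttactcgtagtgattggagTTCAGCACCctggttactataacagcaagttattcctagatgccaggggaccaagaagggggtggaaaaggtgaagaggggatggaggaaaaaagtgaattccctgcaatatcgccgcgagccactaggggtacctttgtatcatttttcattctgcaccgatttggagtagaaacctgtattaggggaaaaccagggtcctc
Unc13a, chr8:71671708-71672007, minus strand: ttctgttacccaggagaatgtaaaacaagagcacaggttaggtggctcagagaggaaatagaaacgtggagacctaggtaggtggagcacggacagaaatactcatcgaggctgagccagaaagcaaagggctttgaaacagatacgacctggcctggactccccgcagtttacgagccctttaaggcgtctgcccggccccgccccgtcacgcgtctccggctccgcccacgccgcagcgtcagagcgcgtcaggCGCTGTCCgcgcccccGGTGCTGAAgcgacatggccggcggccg
In Syn1 the left RE1 part lies at bases 19 to 27 of the window and the CRE, which reads the same on both strands, at bases 92 to 99. In the Nlgn1 window, 1 of 2 given for that gene, the left part lies at bases 98 to 106. Unc13a holds both parts, on the strand opposite to the gene, at bases 257 to 264 (right) and 273 to 281 (left), 8 bases apart and downstream of the start of transcription. A match is only a description of these letters. On the arrays all 3 genes were raised between Day4 and Day7, as were 36 of 50 members and 18.1% of all genes. Syn1 was raised by 28.2-fold, Nlgn1 by at least 34.0-fold and Unc13a by at least 4.39-fold. A link to the matches was not tested.

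Of the proteins of the vesicle itself, 11 of 13 were raised between Day4 and Day7, beside 18.1% of all genes, with a median of 2.33. The synucleins are small proteins of the presynaptic terminal, and Sncg (gamma-synuclein) had the largest change from ES to Day7 of all members by their brightest probes. Its log2 signal was 7.54, 8.22 and 7.88 on ES, Day2 and Day3, 10.53 on Day4 and 17.59 on Day7, that is 134-fold higher on Day7 than on Day4 and 1065-fold higher than on ES. It had left its earlier range by Day4 and took its largest step after it. Sncb (beta-synuclein) stayed low, at 4.18 on ES (not well above background), 5.30, 4.53 (not well above background), 4.91 and 5.49, a change of 1.49-fold from Day4 to Day7.

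The Rab3 proteins are GTPases that ride on vesicles toward release. Rab3a was level before Day7, at 9.59, 10.27, 9.90 and 9.96 on the 4 earlier arrays, and reached 15.09 on Day7, 34.9-fold above Day4. Rab3b was raised 4.37-fold, from 9.96 on Day4 to 12.08 on Day7, after 10.22, 10.13 and 10.74 on ES, Day2 and Day3. Rph3a (rabphilin), a partner of Rab3, was well above background on Day2, at 2.98, and on Day7, at 8.65, and was raised at least 24.3-fold from Day4. Rab3a thus had the largest step among the Rab3 genes by their brightest probes, and Rab3c is described below with its other probes.

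The synapsins coat vesicles and tether them to one another. Syn1 was at 10.28, 10.59, 10.66, 9.19 and 14.01 from ES to Day7, with its lowest value on Day4 just before its rise. Syn2 came up in 2 steps, from 3.75 on ES (not well above background) and 4.30 on Day2 to 7.23 and 6.76 on Day3 and Day4 and to 10.38 on Day7, which is 12.3-fold above Day4. Syn3 was highest on the Day2 array, the one that stood apart, at 7.40 against 5.97 on ES, 5.77 on Day3, 5.57 on Day4 and 7.18 on Day7. The 3 genes therefore had 3 different courses before the shared rise from Day4 to Day7.

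Sv2a, Sv2b and Sv2c encode related transporter-like proteins of the vesicle membrane. Sv2a was above background throughout, at 7.74, 7.79, 8.49, 8.14 and 10.46, and was raised 5.01-fold between Day4 and Day7. Sv2b was not well above background until Day7, where it was at 7.40, at least 10.2-fold above Day4, and Sv2c reached 6.10 there, at least 3.26-fold above Day4. Syp (synaptophysin), the membrane protein most used to stain synapses, had a strong signal already in stem cells. It was at 12.43, 11.40, 11.70, 11.86 and 13.42, so its Day7 signal was 2.96-fold above Day4 and 1.99-fold above ES.

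The synaptotagmins and Doc2 proteins, most of which bind calcium, had 7 of 10 genes raised and 1 lowered between Day4 and Day7, beside 18.1% of all genes in each direction. Syt1, the calcium sensor of fast release, was at 5.83, 8.02, 5.94 and 6.16 on the 4 earlier arrays and at 13.01 on Day7. It was 115-fold higher on Day7 than on Day4, and its Day2 value, from the array that stood apart, was the highest of the earlier ones. Syt4, found on dense-core as well as other vesicles, was at 7.01 on ES and 4.01 on Day2, was not well above background on Day3 and Day4, and was at 11.52 on Day7, at least 177-fold above Day4. By the brightest probe of each gene, the Syt4 rise was the largest of any member in this step, measured as a lower bound.

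Syt2, a fast sensor like Syt1, remained dim. It was at 6.19 on Day7, at least 4.41-fold above Day4, where it was not well above background. Syt11 had a dip in the middle of the course, at 12.33, 11.58, 9.92, 10.47 and 13.90, and was lowered 3.64-fold from ES to Day4 before it was raised 10.8-fold. Syt7, a slow high-affinity sensor, was raised 6.54-fold, from 5.08 on Day4 to 7.79 on Day7, and Syt3 2.80-fold, from 7.78 to 9.26.

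Syt9 went the other way. It was level at 10.22, 10.17 and 10.24 on ES, Day2 and Day3, at 9.28 on Day4 and at 7.83 on Day7, 2.73-fold below Day4 and 5.25-fold below ES. Syt13 was highest on ES, at 11.12, and was at 9.80 on Day4 and 10.22 on Day7. The Doc2 genes split, since Doc2b was raised 13.7-fold, from 5.66 on Day4 to 9.44 on Day7, while Doc2a stayed between 9.12 and 9.66 on all 5 arrays.

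All 8 genes of SNARE fusion and disassembly were well above background on all 5 arrays, beside 67.7% of all genes. Of them 4 were raised between Day4 and Day7, beside 18.1% of all genes, and 6 from ES to Day7, beside 24.8%. Snap25, the neuronal SNARE of the plasma membrane, was bright throughout, at 13.53, 13.02, 13.20, 13.75 and 14.32, and did not reach 2-fold in any comparison. Its partner Stx1a (syntaxin 1A) climbed over the whole course, at 8.60, 9.02, 10.08, 10.22 and 11.55, and was 7.71-fold higher on Day7 than on ES. Vamp2 (synaptobrevin 2), the SNARE of the vesicle, climbed too, at 9.19, 10.30, 11.25, 11.28 and 13.73, and was 23.3-fold higher on Day7 than on ES. Each array gave these genes a higher signal than the array before it, which held for 3 of the 50 members.

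Vamp1 came up early, from 6.29 on ES and 6.67 on Day2 to 8.50 on Day3 and 7.80 on Day4, and was at 8.68 on Day7. The complexins clamp and then release the assembled SNAREs. Cplx1 showed the sharp late step, at 8.39, 8.24, 8.07, 7.69 and 13.50, 55.9-fold above Day4. Cplx2 was bright from the start, at 13.75 on ES, 14.66 on Day4 and 15.56 on Day7, 3.50-fold above ES. Nsf and Napb belong to the machinery that takes spent SNAREs apart, and they moved by different amounts. Nsf, the ATPase used in all cells, was at 12.55 on ES, 11.29 on Day4 and 12.16 on Day7, 1.82-fold above Day4, while Napb (beta-SNAP), its neuronal adaptor, was raised 6.49-fold between Day4 and Day7, from 9.57 to 12.26.

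At the active zone, 5 of 7 genes were raised between Day4 and Day7, beside 18.1% of all genes, and 1 was lowered, Rims1, whose probes differed. Bsn (bassoon), a giant scaffold of the active zone, was at 5.44, 4.71, 6.44, 6.85 and 12.01, 35.8-fold above Day4 on Day7 and 95.3-fold above ES. The Unc13 proteins prime docked vesicles for fusion. Unc13b was bright throughout, from 10.92 on ES to 13.51 on Day7. Unc13a and Unc13c were not well above background on ES, Day3 or Day4 and reached 6.19 and 6.64 on Day7. Rims2, which links Rab3 to the priming machinery, was raised 2.79-fold, from 7.60 on Day4 to 9.08 on Day7.

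The 3 genes of vesicle endocytosis were all raised between Day4 and Day7, beside 18.1% of all genes. Snap91 (AP180), which builds the neuronal clathrin coat, was at 5.41, 6.03, 7.37, 6.27 and 11.22, 30.9-fold above Day4. Dnm1 (dynamin 1), the GTPase that cuts the vesicle free, went from 10.57 on ES to 12.62 on Day3, 11.98 on Day4 and 14.32 on Day7. Amph (amphiphysin), which recruits dynamin, dipped from 11.72 on ES to 10.68 on Day4 and was at 12.66 on Day7.

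By the brightest probes, trans-synaptic adhesion genes had the largest median of any role, 4.32 between Day4 and Day7. All 5 were raised, beside 18.1% of all genes. Nlgn1, the neuroligin of excitatory synapses, was well above background before Day7 on the Day2 array alone, at 3.24, and was at 9.14 on Day7, at least 34.0-fold above Day4. Nrxn3 went from 5.19 on Day4 to 9.51 on Day7 and Nrxn2 from 9.94 to 14.27, which are steps of 20.0-fold and 20.1-fold. Nlgn3 was raised 14.5-fold and Nlgn2, a neuroligin of inhibitory synapses that was bright from ES on, 3.89-fold. Dimmer Nrxn3 probes with a value were raised less, by 8.57-fold and by at least 3.13-fold and 2.85-fold. The dimmer Nlgn3 probe was raised at least 2.79-fold from Day4 but was only 1.22-fold higher on Day7 than on ES.

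The postsynaptic scaffolds had a median change of 0.37 between Day4 and Day7, and 1 of 4 genes was raised, beside 18.1% of all genes. That gene was Dlg4 (PSD-95), which anchors glutamate receptors, at 5.64, 6.80, 6.43, 6.28 and 8.64. Homer1 was nearly level, at 9.53, 10.10, 9.85, 9.82 and 10.16, and Shank1 was at 7.86 on Day4 and 7.75 on Day7 by its brightest probe, with its dimmest raised 2.86-fold. Shank2 was not well above background on ES, was highest at 6.91 on the Day2 array, the one that stood apart, and was at 5.15 on Day7. With 3 to 13 genes in a role, these differences between roles are descriptions of the listed genes.

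Several genes had more than 1 probe, and the probes did not always move alike. Of 14 members with at least 2 probes that gave a value between Day4 and Day7, the probes of 7 fell on the same side of 2-fold and those of 7 did not, namely Cplx2, Dnm1, Pclo, Rab3c, Rims1, Shank1 and Syt3. From ES to Day7, 8 fell on the same side and 6 did not.

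Rab3c shows the widest gap on the raised side. Its 2 bright probes were level at all time points, between 14.68 and 15.40 for the brighter and between 13.98 and 14.64 for the other. Its dimmest probe, designed on the same transcript, was not well above background on ES, Day3 or Day4, was at 2.80 on Day2 and was at 13.74 on Day7, at least 712-fold above Day4. Counted by its brightest probe, Rab3c was not raised.

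Pclo (piccolo), the partner of bassoon at the active zone, was similar. Its brightest probe was level, at 10.54, 10.41, 10.38, 10.82 and 10.63. Its other 3 probes were raised between Day4 and Day7, by 12.4-fold, at least 11.6-fold and at least 25.2-fold. For Rims1, the scaffold that binds Rab3 on vesicles, the probes moved in opposite directions. The brighter probe was at 13.04, 13.28, 13.30, 15.02 and 6.79, a 299-fold drop from Day4 to Day7, while the other, designed on a second transcript, was at 6.66, 4.20, 5.30, 5.21 and 6.40, a rise of 2.28-fold. Rims1 is thus counted as lowered on 1 of its 2 probes.

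Cplx2 differed only in size. All 4 of its probes were highest on Day7, with changes from Day4 between 0.90 and 3.12 on the log2 scale, and the dimmest probe on average ran from 8.25 on ES to 14.01 on Day7. Of the 2 Dnm1 probes, the brighter was raised 5.06-fold and the dimmer was 1.81-fold lower on Day7. When the probes of each gene were averaged instead, 38 members were raised and 2 lowered between Day4 and Day7, beside 17.3% and 18% of all genes. With the second brightest probe, where there was one, 35 of 48 were raised and 1 was lowered, beside 17.6% and 20.2%.

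**Figure D3:**
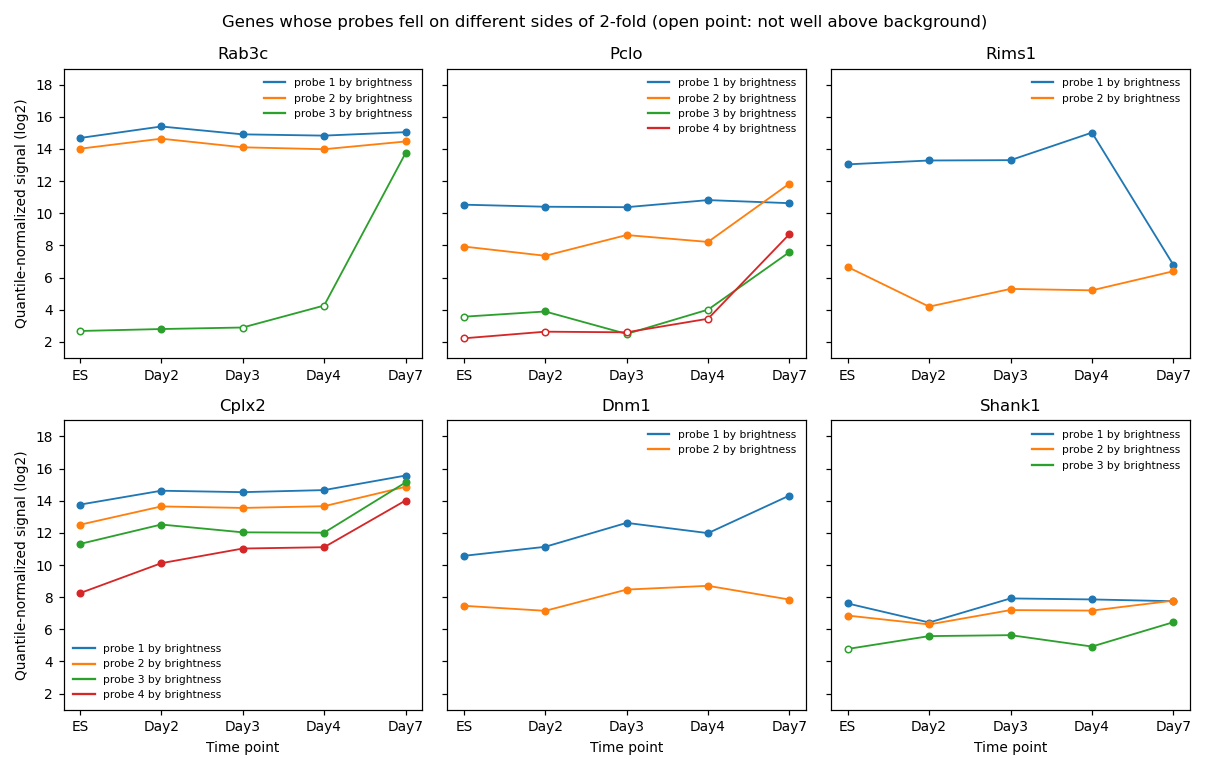
Log2 signal of every matched probe of Rab3c, Pclo, Rims1, Cplx2, Dnm1 and Shank1 on the 5 arrays, with probes numbered by mean brightness and open points for values not well above background. The bright probes of Rab3c and Pclo are level while dimmer probes rise on Day7, and of the Rims1 probes the brighter drops from 15.02 to 6.79 while the other goes from 5.21 to 6.40.

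A second list held 26 relatives of the same families that most cells use for other membrane traffic, of which 25 had a matched probe. Between Day4 and Day7, 3 of the 25 were raised and 10 lowered, beside 18.1% of all genes in each direction, and their median was -0.73. All 25 were well above background on all 5 arrays, beside 67.7% of all genes. The raised ones were Stx7, Vamp7 and Napg. The lowered ones were Stx3, Stx4a, Vamp3, Vamp8, Sh3gl1, Stxbp2, Unc13d, Rab27a, Homer3 and Dlg1.

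Set side by side within families, some neuronal and broadly expressed genes moved apart between Day4 and Day7. Vamp2 was raised 5.46-fold where Vamp3 (cellubrevin), the SNARE of recycling vesicles, was lowered 3.05-fold and Vamp8, of endosomes and secretory granules, 4.57-fold. Stx1a was raised 2.52-fold where Stx3 was lowered 3.98-fold on its brightest probe, 7.84-fold on the next and was 1.24-fold lower on the dimmest. Dlg4 was raised 5.14-fold where Dlg1 was lowered 2.30-fold. Dnm1 was raised 5.06-fold on its brighter probe, while the ubiquitous Dnm2 was 1.78-fold lower on its brighter probe and lowered 3.26-fold on the other. In the SNAP25 family, Snap25 was 1.48-fold higher, and the probes of Snap23 differed, with the brighter 1.10-fold higher and the other lowered 2.75-fold. No test of these differences was possible with 1 array per time point.

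**Figure D4:**
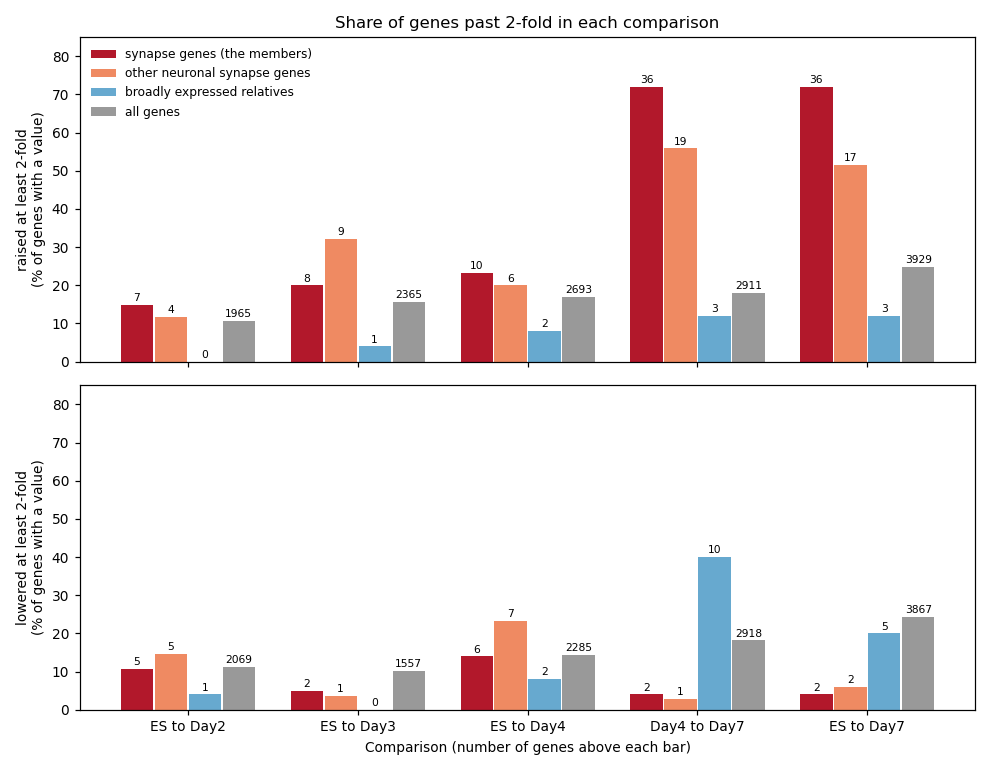
Share of genes raised (top) and lowered (bottom) at least 2-fold in each comparison, in percent of the genes with a value, with the number of genes above each bar. The synapse genes reach 36 raised genes of 50 in both comparisons with Day7, where 24.8% or fewer of all genes were raised, while 10 of 25 broadly expressed relatives were lowered from Day4 to Day7.

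Another list held 35 further neuronal synapse genes that are not members. Of the 34 with a value between Day4 and Day7, 19 were raised and 1 lowered, beside 18.1% of all genes in each direction, with a median of 1.47. From ES to Day7, 17 of 33 were raised, beside 24.8% of all genes, and 2 lowered, beside 24.4%, with a median of 1.68. Cadps, a priming factor of dense-core vesicles, was raised 32.8-fold between Day4 and Day7. The vesicular transporters, each of which loads a given transmitter, did not all move alike. Slc18a3, the vesicular acetylcholine transporter, went from 9.58 on Day4 to 15.54 on Day7. Slc17a6, a vesicular glutamate transporter, was at 5.13 on ES, was not well above background on Day4 and was at 10.43 on Day7. Slc18a2, the monoamine transporter, was raised on both its probes, by 16.4-fold and 16.9-fold. Slc32a1, the transporter of inhibitory terminals, was at 8.79 on ES, 6.64 on Day4 and 9.22 on Day7 by its brighter probe, with the other at 6.15 on Day4 and 5.86 on Day7. Slc17a7, the other glutamate transporter listed, was not well above background on Day7. The only gene of the list lowered between Day4 and Day7 by its brightest probe was Syngr1 (synaptogyrin 1), at 10.13 on Day4 and 9.04 on Day7, and its other probe moved the opposite way, from 6.13 to 8.13.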

How the data were processed

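Total RNA was hybridised to Agilent SurePrint G3 Mouse arrays, 1 per time point, and each array was placed at its time point by its label. The authors deposited scanner output from Agilent Feature Extraction 10.5.1, in which the spot intensity is background-subtracted by the software, with detection flags, and a series table in log2. That table equalled each probe's log2 intensity with 1 constant per array subtracted, within 0.01 for 100% of probes compared, so its scale and direction are known. The constant itself was not compared with the array's 75th percentile. Column medians ranged from -3.71 to -2.62.

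Control and outlier spots were left out, and log2 intensities were averaged per probe. They were quantile-normalized over the 5 arrays in limma 3.58.1 (R 4.3.3). This method was chosen because the heat map legend of the study names "Quantile analysis", without further detail. Further steps used Python 3.11.15, numpy 2.4.6, pandas 2.3.3 and matplotlib 3.10.9. Of 55681 probes, 26300 were named through RefSeq accessions (GRCm38.p6, used for names and promoter windows), giving 19897 genes, 5339 of them with more than 1 probe. The members had 78 probes, and the brightest on average stood for each gene. A gene above background on neither array of a comparison was given no value. Where the brighter array did not pass the background level of the other, the change was taken as 0. Saturated probes numbered 0.

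All members were named by role, and the members and lists were chosen with earlier results of these data known. The calculation of changes and calls was checked on a simulated pair of arrays with planted changes, all larger than 2-fold. That check did not cover normalization, probe choice or gene names. Alternatives were other scalings, detection rules, probe choices and thresholds. Normexp was run on median spot signals. A comparison of protein sequences within families was not run. The precision is limited by the number of arrays.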

Additional observations from a re-analysis of the deposited data

Results flagged for a closer look

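Of the 1155 olfactory receptor probes, which measure no synapse gene, 70% were well above background on Day2 and 11.8% on ES. The part of this difference in the Day2 values of the synapse genes was not tested.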

How the results depend on the processing

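No paired analysis was possible because there was 1 array per time point, and leaving out an array of a comparison or fitting slide as a block was not possible for the same reason. The number of raised members was 27 to 47 between Day4 and Day7 and 24 to 42 between ES and Day7 under every scaling, detection rule, probe choice and threshold run, with 8.76% to 52.1% and 12.9% to 33% of all genes raised, and 36 and 37 without the Day2 array in the normalization, an alternative added after seeing the data. For all other counts and medians below, the cause of the move was not tested. With the 75th percentile scaling and with the deposited log2 values alike, the step from ES to Day2 had 13 raised and 3 lowered members. Of all genes 20.9% were raised, and 7.01% and 7.03% lowered. The members' median was 0.40 with either. Without normalization the median of all genes moved to 0.27 from ES to Day2, -0.63 to Day3, -1.06 to Day4 and 1.06 from Day4 to Day7. The members raised and lowered were then 15 and 2 from ES to Day2, beside 24.8% and 4.25% of all genes. From ES to Day4 they were 3 and 15, beside 5.55% and 52.7%. From ES to Day3 8 were lowered, beside 32.9%, and from Day4 to Day7 1, beside 3.33%. The members' medians were 0.63 (Day2), -0.17 (Day3), -0.59 (Day4) and 3.37 (Day4 to Day7). Relative to all genes, the members' median between Day4 and Day7 was 2.26 as reported, 2.30 with the 75th percentile, 2.32 without normalization and 1.66 with normexp, the lowest over the settings run. Normexp gave 4 raised and 1 lowered to Day2, beside 5.23% and 4.6% of all genes. It gave 6 raised to Day4, beside 11.3%, and a median of 1.77 from ES to Day7. With the other detection flag or no filter on dim probes, 8 were lowered to Day2 and 4 to Day3. Of all genes, 14% and 13.8% were lowered to Day2 under these settings, and 13.7% and 12.2% to Day3. The members' median to Day2 was 0.25 under either. With probes above background on both arrays, 1 was lowered to Day3, beside 9.67%. At 1.5-fold, 12, 17 and 16 members were raised and 8, 5 and 10 lowered on Day2, Day3 and Day4 against ES, beside 17.5%, 27.5% and 28.7% of all genes raised and 19.3%, 20.7% and 24.4% lowered. At 4-fold these were 2, 4 and 3 raised, beside 4.83%, 4.15% and 5.19% of all genes, and 1 lowered in each, beside 3.64%, 2.32% and 4.1%. From Day4 to Day7 1 was lowered at 4-fold, beside 4.36%. With the second brightest probe 1 was lowered in each comparison with Day7, beside 20.2% of all genes from Day4 and 24.8% from ES. Changes of single genes that had reached 2-fold turned their sign in 7 cases. Without normalization Rims2 was at 0.025 from ES to Day2 and Nlgn2 at -0.22 from ES to Day4. With probes averaged Syn3 was at -0.077 from ES to Day2. With the second brightest probe Syt3 was at 0.74 from ES to Day2, Rims1 at -1.45 from ES to Day4 and 1.19 from Day4 to Day7, and Dnm1 at -0.85 from Day4 to Day7.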
